A study of Mus musculus with 6 samples.

Results

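Phospholipases A2 are the enzymes that cut a fatty acid from the middle carbon of a membrane phospholipid, and 10 members of that superfamily, chosen as enzymes of the epidermis, are examined here: the cytosolic Pla2g4a, Pla2g4b, Pla2g4e and Pla2g4f, the secreted Pla2g2e, Pla2g2f, Pla2g3, Pla2g10 and Pla2g12a, and the calcium-independent Pla2g6. They were chosen by gene symbol, as probe sets whose single annotated gene is one of the 10. This gave 12 of the 45037 probe sets tested, for 9 of the 10 genes and of 18193 genes in all. The 1 probe set that carries Pla2g4b is annotated to a second gene as well, so Pla2g4b is not reported.

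The study profiled total RNA of primary keratinocytes, the epithelial cells of epidermis, isolated from newborn mice of a C57BL6/FVB background and cultured with 100 nM sodium selenite in all media. In the Gpx4 KO pools the selenoenzyme Gpx4, which reduces lipid hydroperoxides inside membranes, had been removed in keratinocytes by a cre recombinase under the keratin 14 promoter. Controls came from the same litters and the labels give their genotype only as control. Cells were pooled by genotype within each litter, from a number of mice that the labels do not give, and litters A, B and C gave 3 control and 3 knockout arrays. The question was how loss of Gpx4 alters the keratinocyte transcriptome, here for the enzymes that release fatty acids from membranes.

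Phospholipase A2 action yields a free fatty acid and a lysophospholipid. Where the fatty acid is arachidonic acid, cyclooxygenases and lipoxygenases turn it into prostaglandins and leukotrienes. In epidermis, secreted members also supply fatty acids and lysophospholipids to the differentiating layers and the hair follicle, and some phospholipases A2 remove oxidized acyl chains from phospholipids, the lipids that Gpx4 reduces in place.

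The deposited 1-colour intensities had medians between 15.9 and 20.4 per array, and the trimmed mean of the litter C control was 114.3 against 72.9 to 92.1 in the other 5 arrays, so all levels below are quantile-normalized intensities. The number of arrays, 3 per group, limits the precision of every value. On its brighter probe set Gpx4 itself had normalized intensities of 496.9, 550.9 and 535.7 in controls and 212, 259.7 and 216.1 in knockouts of litters A, B and C (limma adjusted p = 0.0206). Its other probe set had 336.9, 324.5 and 486.4 in controls and 107.1, 184.5 and 116.8 in knockouts (limma adjusted p = 0.063). The pools also differed in a way the labels do not give: the Y-linked Eif2s3y lay between 155.5 and 185.3 in controls and between 0.7 and 4.6 in knockouts, and Xist, the RNA of the inactive X, between 388.9 and 536.2 in controls and between 1213.9 and 1259.8 in knockouts. The sex makeup of the pools and the genotype cannot be told apart. The basal keratins Krt5 and Krt14 lay between 6278.1 and 7048.9 on all arrays, which matches the keratinocyte label.

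Differences below are given on log2(intensity + 16) as the knockout less the control of the same litter, with the SE that limma fits. That scale understates changes of dim probe sets, and most of these are dim: 11 of the 12 had a mean below 64 and 5 below 16, where the median of all probe sets was 17.5. A gene passed at an adjusted p of 0.05 over all probe sets. By limma none of the 9 measured members passed on its brightest probe set, where 0.616% of all genes did, and 3 had an unadjusted p under 0.05, namely Pla2g2f, Pla2g4a and Pla2g3, where 18.1% of all genes did. In the same 3 members the groups did not overlap, 1 of them lower and 2 higher in the knockout, where 20.6% of all genes had groups that did not overlap (10.8% lower and 9.81% higher). Of the 12 probe sets 0 passed, where 0.42% of all did (0.158% higher and 0.262% lower), and 4 had an unadjusted p under 0.05, where 14.6% did. In those 4 the groups did not overlap, 2 lower and 2 higher, where 18.2% of all probe sets had such groups (9.43% lower and 8.79% higher). Of the 9 members 6 had a positive and 3 a negative log2 change, and their median was 0.07, against 0.00 over all genes.

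**Figure D1:**
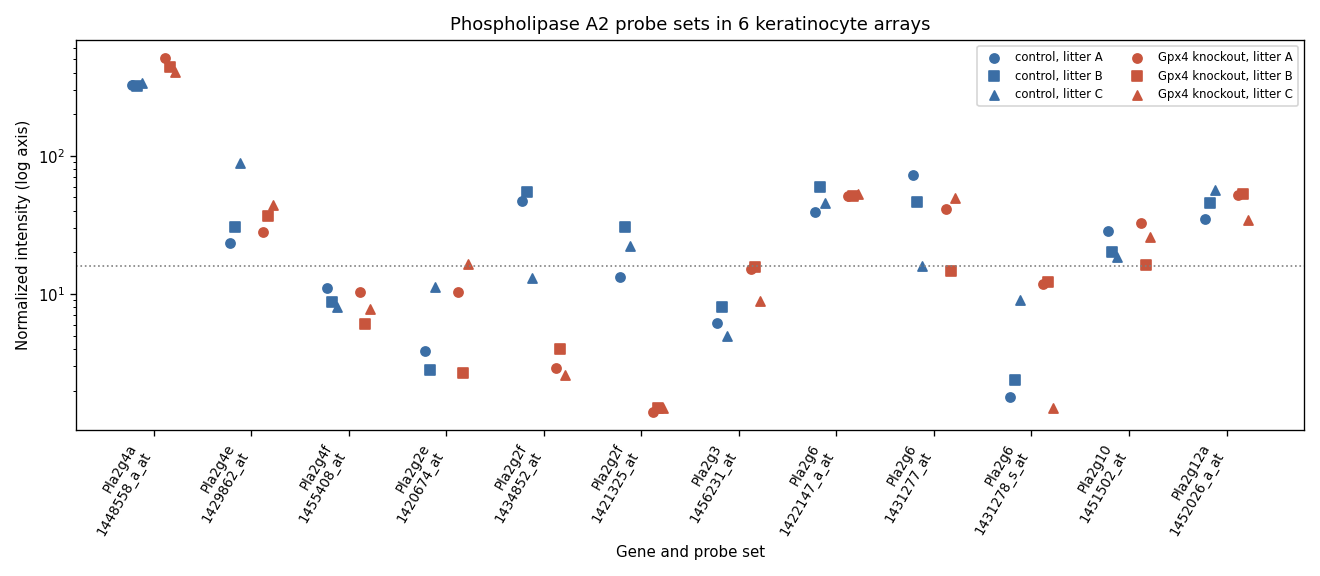
Quantile-normalized intensity (log axis) of the 12 phospholipase A2 probe sets on each of the 6 arrays, with a colour per genotype, a marker shape per litter and a dotted line at an intensity of 16. Pla2g4a lies between 323.4 and 512.5 with knockouts above controls, both Pla2g2f probe sets have all 3 knockouts below the controls, and the other probe sets lie below 100.

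Sequence around the gene starts is shown for Pla2g2f and Pla2g4a, because they had the smallest unadjusted p on their brightest probe sets and opposite directions, and for Pla2g2e, the relative of Pla2g2f in the same gene cluster. This choice was made after the values were seen. Each window is a RefSeq promoter of build GRCm38.p6, from 250 bases before a gene start to 50 after it, and Pla2g4a has 2 starts and so 2 windows. The windows are given 5′ to 3′ on the gene's strand, and capitals mark matches on either strand to any of 5 motifs: the AP-1 site TGANTCA, the TATA box TATAAA, the CCAAT box CCAAT, the GC box GGGCGG and the antioxidant response element core TGACNNNGC. No match overlaps another in these 4 windows.
Pla2g2f, chr4:138757549-138757848, minus strand: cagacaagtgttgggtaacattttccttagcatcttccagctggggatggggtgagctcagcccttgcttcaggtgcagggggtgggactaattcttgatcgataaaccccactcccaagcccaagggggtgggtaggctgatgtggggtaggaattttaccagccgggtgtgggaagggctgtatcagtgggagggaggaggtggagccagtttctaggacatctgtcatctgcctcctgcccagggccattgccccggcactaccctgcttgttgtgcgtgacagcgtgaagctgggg
Pla2g4a, window 1, chr1:149961241-149961540, minus strand: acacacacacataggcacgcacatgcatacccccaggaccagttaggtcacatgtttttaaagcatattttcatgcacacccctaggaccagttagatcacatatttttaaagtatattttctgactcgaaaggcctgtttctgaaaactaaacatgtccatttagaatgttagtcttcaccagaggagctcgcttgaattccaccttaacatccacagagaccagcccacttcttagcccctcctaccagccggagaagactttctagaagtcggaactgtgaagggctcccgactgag
Pla2g4a, window 2, chr1:149922390-149922689, minus strand: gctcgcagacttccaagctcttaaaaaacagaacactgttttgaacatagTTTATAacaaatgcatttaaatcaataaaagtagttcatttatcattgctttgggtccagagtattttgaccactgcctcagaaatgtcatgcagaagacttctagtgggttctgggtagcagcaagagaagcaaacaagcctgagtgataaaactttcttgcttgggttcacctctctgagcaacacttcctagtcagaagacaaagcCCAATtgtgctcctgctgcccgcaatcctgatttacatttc
Pla2g2e, chr4:138877692-138877991, plus strand: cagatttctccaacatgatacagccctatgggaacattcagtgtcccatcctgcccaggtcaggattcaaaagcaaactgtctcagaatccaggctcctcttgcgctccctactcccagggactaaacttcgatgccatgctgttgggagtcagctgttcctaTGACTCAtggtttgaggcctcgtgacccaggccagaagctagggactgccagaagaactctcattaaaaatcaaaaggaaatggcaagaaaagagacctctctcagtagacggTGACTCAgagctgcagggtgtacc
The Pla2g2f window and window 1 of Pla2g4a held none of the 5 motifs, which says only that these letters are not in these windows. Window 2 of Pla2g4a held TATAAA on the opposite strand, starting 200 bases before the gene start, and CCAAT starting 10 bases after it. The Pla2g2e window held the AP-1 letters at 2 places, starting 87 bases before and 27 bases after the gene start, and it was the 1 of 9 member windows with them. Over all 32851 RefSeq windows of this length 7.81% held the AP-1 letters, 13.6% TATAAA, 37.4% CCAAT, 35.7% GGGCGG and 12.4% TGACNNNGC. The share of G and C was 57.7% for Pla2g2f, 50.3% for Pla2g2e and 45.3% and 41% for windows 1 and 2 of Pla2g4a.

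Among the secreted enzymes, Pla2g2f had the largest log2 change of the 9 members. Pla2g2f is the secreted phospholipase A2 of suprabasal keratinocytes and acts on ethanolamine plasmalogens. Its brighter probe set had intensities of 46.9, 54.4 and 13 in the controls and of 2.9, 4 and 2.6 in the knockouts, in the order litter A, B, C used throughout. All 3 knockouts lay below every control, and the litter C control was the lowest of the controls. Group levels were 38.1 ± 22.1 and 3.15 ± 0.718 (SD, n = 3 each). The log2 change was -1.40 ± 0.26 (95% interval -2.02 to -0.78) and did not pass (limma adjusted p = 0.0885). Its differences by litter were -1.74, -1.82 and -0.64.

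The dimmer probe set of the gene had 13.2, 30.8 and 22.2 in controls and 1.4, 1.5 and 1.5 in knockouts. Here too the groups did not overlap, but the lowest control was that of litter A and not that of litter C. Its log2 change was -1.10 ± 0.17 (95% interval -1.50 to -0.69), from litter differences of -0.75, -1.42 and -1.12, and it did not pass either (limma adjusted p = 0.0647). The 2 probe sets measure 1 gene on the same RNA and are no independent support for each other. With the intensities scaled as deposited the values were 41.5, 57.4 and 14.8 against 2.6, 4.2 and 2.5 on the brighter probe set, so the groups did not overlap on that scale either. The size of the change follows the number added before the logarithm: it was -3.02 with 1 and -0.58 with 64 on the brighter probe set, and -3.15 and -0.39 on the other. With 1 added both probe sets passed (adjusted p = 0.0353 and 0.0317), as they did without litter C (-1.78 and -1.09, adjusted p = 0.00533 and 0.0346). Neither passed without litter A (-1.23 and -1.27, limma adjusted p = 0.391 and 0.231) or without litter B (-1.19 and -0.94, 0.525 and 0.461). Over all probe sets 601 passed with 1 added and 2773 without litter C, against 189 in the reported setting. Without litter A 3 of all probe sets passed, and without litter B 0 did.

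Pla2g3, a large secreted enzyme related to the phospholipase of bee venom, was dim on every array, with 6.2, 8.1 and 5 in controls and 15.3, 15.7 and 8.9 in knockouts. Every knockout lay above every control, by a margin of less than 1 between the highest control and the lowest knockout. The log2 change was 0.38 ± 0.13 (95% interval 0.06 to 0.70) and did not pass (limma adjusted p = 0.274). With 1 in place of 16 added it was 0.93 and with 64 it was 0.13, and it passed under neither.

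Pla2g2e, a secreted enzyme of the hair follicle, had 3.9, 2.8 and 11.3 in controls and 10.3, 2.7 and 16.5 in knockouts. The groups overlapped and 5 of the 6 arrays were below 16 (log2 change 0.22 ± 0.13, 95% interval -0.11 to 0.54). Pla2g10, which acts on phosphatidylcholine after its propeptide is removed, had 28.8, 20.1 and 18.6 in controls and 32.5, 16.2 and 25.8 in knockouts, again overlapping (0.07 ± 0.17, 95% interval -0.34 to 0.48). Pla2g12a, a structurally atypical secreted member, had 34.8, 46 and 57 in controls and 52.1, 52.8 and 34.1 in knockouts. Its litter differences were 0.42, 0.15 and -0.54, and the log2 change was 0.01 ± 0.21 (95% interval -0.50 to 0.52). None of these 3 passed by limma (adjusted p = 0.519, 0.893 and 0.992), and the directions of Pla2g10 and Pla2g12a turned negative with the intensities scaled as deposited (-0.01 and -0.16). On the deposited scale all probe sets brighter than the median had a median log2 change of -0.16.

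**Figure D2:**
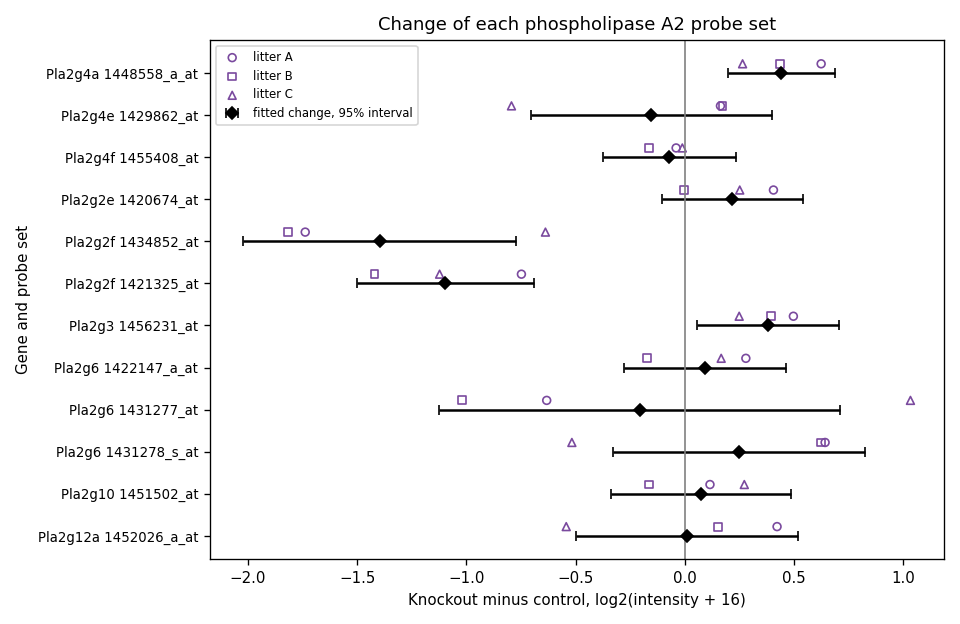
Log2 change (knockout minus control, on log2(intensity + 16)) of each probe set, with the fitted value as a black diamond, its 95% interval as a bar and the difference within each litter as open symbols. The intervals of both Pla2g2f probe sets lie below 0 and those of Pla2g4a and Pla2g3 above 0, while the litters of Pla2g4e, Pla2g12a and 2 of the Pla2g6 probe sets have differences larger than 0.5 in one litter with the opposite sign in another.

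Among the cytosolic enzymes, Pla2g4a was the 1 bright member. It encodes the calcium-dependent phospholipase A2 that prefers phospholipids carrying arachidonic acid. Its normalized intensities were 327.1, 323.4 and 334.8 in controls and 512.5, 443.2 and 405.1 in knockouts. All knockouts lay above all controls, the 3 controls within a narrow band and the knockout of litter A highest. Group levels were 328.4 ± 5.8 and 453.6 ± 54.4, and the log2 change was 0.44 ± 0.10 (95% interval 0.20 to 0.69). The difference was 0.62 in litter A, 0.44 in B and 0.26 in C. It did not pass (limma adjusted p = 0.134). The separation of the groups rests on the normalization: as deposited the intensities were 270.6, 337.8 and 456.6 in controls and 435.9, 479.1 and 339.3 in knockouts, which overlap, and the log2 change was 0.24 (adjusted p = 0.832). On that scale all probe sets brighter than the median had a median log2 change of -0.16, against 0.00 after normalization. Without litter C the Pla2g4a change was 0.53 and passed (limma adjusted p = 0.021). It was 0.35 without litter A and 0.44 without litter B, and did not pass (limma adjusted p = 0.518 and 0.575).

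Pla2g4e, which transfers acyl chains to make N-acyl-phosphatidylethanolamines, had 23.6, 30.6 and 88.8 in controls and 28.3, 36.5 and 44.4 in knockouts. The litter C control was the highest array, and the groups overlapped. The differences were 0.16 and 0.17 in litters A and B and -0.79 in litter C, and the log2 change of -0.15 ± 0.23 (95% interval -0.71 to 0.40, limma adjusted p = 0.818) became 0.17 without litter C. Pla2g4f, a further cytosolic enzyme of the same gene cluster, lay between 6.1 and 11.1 on all 6 arrays, under 16 on each (log2 change -0.07 ± 0.13, limma adjusted p = 0.849). At that brightness these arrays did not show a difference, and the 95% interval of -0.38 to 0.23 applies to the scale with 16 added.

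Pla2g6, the calcium-independent enzyme that removes oxidized acyl chains, has 3 probe sets, and they disagreed. The brightest had 39.4, 59.9 and 45.6 in controls and 51.2, 51.4 and 53.1 in knockouts, a log2 change of 0.09 ± 0.15 (95% interval -0.28 to 0.46). The next had 73.1, 46.2 and 15.9 in controls and 41.5, 14.7 and 49.2 in knockouts, and the third 1.8, 2.4 and 9.1 in controls and 11.8, 12.3 and 1.5 in knockouts. In litters A and B the second was lower in the knockout (-0.63 and -1.02) and the third higher (0.64 and 0.62), and in litter C both were turned (1.03 and -0.52). None of the 3 passed by limma (adjusted p = 0.844, 0.859 and 0.694). Pla2g6 therefore has no direction in these data that its probe sets share.

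Both gene clusters of the family could be followed through the neighbours that a RefSeq gene table of GRCm38.p6 lists. On chromosome 4 the order is Pla2g2c, Pla2g2f, Pla2g2d, Pla2g5, Pla2g2a, Gm13030 and Pla2g2e, where Gm13030 was not measured by a probe set of its own and Pla2g2a is listed as a transcribed pseudogene of the C57BL/6J assembly. Pla2g2c lay between 14.1 and 24.3, Pla2g2d between 12.1 and 35.7, Pla2g5 between 0.6 and 4.5 and Pla2g2a between 7.8 and 14, with groups that overlapped in each. Their log2 changes were 0.21, -0.31, 0.00 and -0.10 (limma adjusted p from 0.623 to 0.994), beside the -1.40 of Pla2g2f. That Pla2g2f differs from these neighbours was not tested. On chromosome 2 the order is Pla2g4b, Sptbn5, Ehd4, Pla2g4e, Pla2g4d and Pla2g4f, where Sptbn5 was not measured by a probe set of its own. Ehd4 lay between 76.4 and 106.3 and Pla2g4d between 7.6 and 17.3, with groups that overlapped in both (log2 changes 0.03 ± 0.13 and 0.14 ± 0.14, limma adjusted p = 0.941 and 0.705).

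The wider family and its surroundings were then counted on lists of related genes, with the same test over all probe sets. Of 23 other measured genes with phospholipase A2 or related activity 0 passed by limma. The share at an unadjusted p under 0.05 was 18.1% over all genes, and here 2 were lower and 1 higher. These 23 genes had a median log2 change of 0.01. Their 4 smallest p-values belonged to Pnpla1, an acyltransferase of barrier ceramides (-0.58 ± 0.20), Pla2g7, which hydrolyses platelet-activating factor and oxidized phospholipids (-0.66 ± 0.24), Pnpla7, a lysophospholipase (0.38 ± 0.15), and Pnpla2, the triglyceride lipase of fat droplets (0.25 ± 0.12), with adjusted p between 0.255 and 0.415. Pla2g7 had 80.4, 63.5 and 179.2 in controls and 49.6, 59.2 and 61.4 in knockouts.

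Of 15 measured regulators of these enzymes 0 passed by limma, with a median of 0.05. Among them 4 were higher and 1 lower at an unadjusted p under 0.05, where 18.1% of all genes had such a p. Mknk2, a kinase below the MAP kinases, had -0.75 ± 0.13 (adjusted p = 0.0817), and the MAP kinase phosphatase Dusp1 had 1.14 ± 0.29, with 1.64 and 1.63 in litters A and B and 0.16 in litter C. Camk2d, a calcium-dependent kinase, had 0.41 ± 0.14, and Anxa1, a calcium-dependent phospholipid-binding protein known as an inhibitor of cytosolic phospholipase A2, 0.18 ± 0.07, with 4654.5 to 4973 in controls and 4991.2 to 5858.7 in knockouts. Of 22 measured genes that put acyl chains back on lysophospholipids or clear them 0 passed by limma, with a median of 0.09. Here 4 were higher and 2 lower at an unadjusted p under 0.05, beside 18.1% of all genes. Agpat5 (0.54 ± 0.13), an acyltransferase, had 197.6, 201.2 and 302.9 in controls and 332.6, 338.2 and 351.2 in knockouts. Lpar6, a receptor for lysophosphatidic acid (0.37 ± 0.10), Lypla1, a lysophospholipase and thioesterase (0.30 ± 0.09), and the acyltransferase Agpat4 (-0.42 ± 0.13) followed, and the adjusted p of these 4 lay between 0.144 and 0.227.

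Downstream, among 27 measured genes that convert arachidonic acid or bind its products, 2 rose and 0 fell (0.214% and 0.401% of all genes), with a median of -0.06. Ptgs2, the inducible cyclooxygenase, rose by 2.31 ± 0.24 and Ptges, a prostaglandin E synthase, by 0.97 ± 0.11 on the log2 scale (limma adjusted p = 0.0343 and 0.0371). Neither passed as deposited (adjusted p = 0.0782 and 0.324), without litter A (0.178 and 0.248), without litter B (0.377 and 0.406) or when a gene's probe sets were averaged (0.0676 and 0.0867). Lta4h, the leukotriene A hydrolase, had 631.5, 588.1 and 540.9 in controls and 383.9, 437.9 and 453.1 in knockouts (-0.45 ± 0.11, adjusted p = 0.145), and Ptgr1, which inactivates leukotrienes and prostaglandins, -0.26 ± 0.11 (adjusted p = 0.350).

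**Figure D3:**
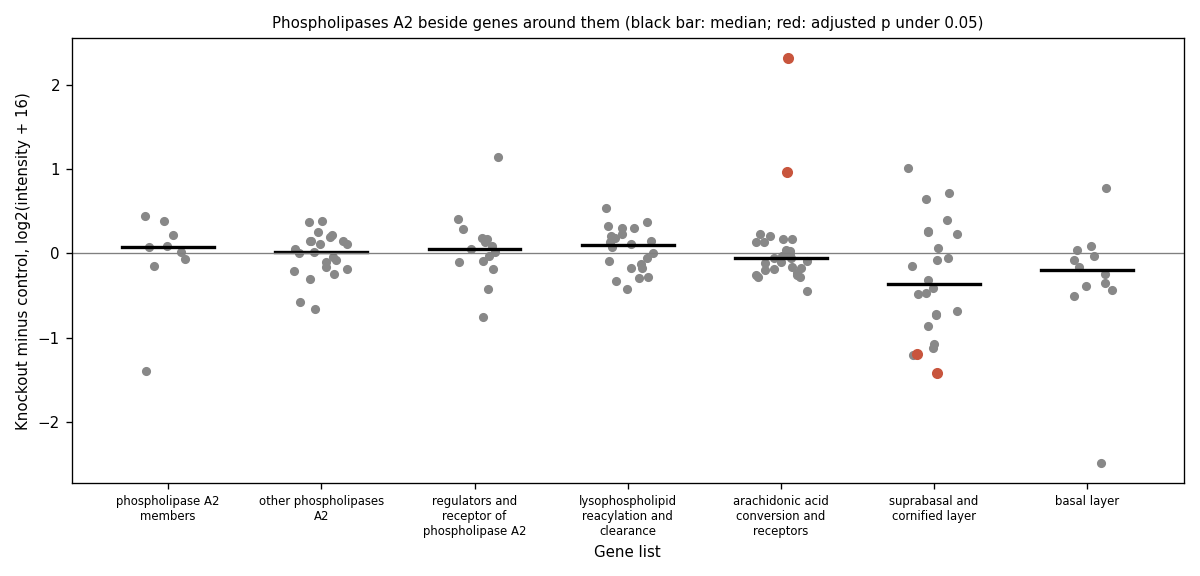
Log2 change of each gene on its brightest probe set for the 9 measured phospholipase A2 members and the 6 lists around them, with a black bar at the median and red points for genes with an adjusted p under 0.05. The members' median is 0.07 with Pla2g2f lowest at -1.40, and the red points are Ptgs2 and Ptges above 0 and Krt10 and Klk5 below it.

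Because Pla2g2f, Pla2g4e and Pnpla1 are enzymes of the upper epidermal layers, genes of those layers are given beside them. Of 24 measured suprabasal and cornified-layer genes 2 fell and 0 rose (0.401% and 0.214% of all genes), with a median of -0.37. At an unadjusted p under 0.05 there were 9 lower and 3 higher in the knockout, where 18.1% of all genes had such a p. In 5 lower and 3 higher the groups did not overlap (10.8% and 9.81% of all genes). The suprabasal keratin Krt10 fell by 1.42 ± 0.08 and the serine protease Klk5 by 1.19 ± 0.15 on the log2 scale (limma adjusted p = 0.00922 and 0.0429), and the desmosomal cadherin Dsc1 (-1.07 ± 0.19) and Krt1 (-1.21 ± 0.22) did not pass (adjusted p = 0.0798 and 0.0836). In the other direction the protease inhibitor Spink5 had 0.71 ± 0.14, the crosslinking transglutaminase Tgm1 1.01 ± 0.29 and Lor, which encodes loricrin of the cornified envelope, 0.39 ± 0.15, all 3 with groups that did not overlap and none passing (adjusted p = 0.106, 0.196 and 0.304). Krt10 and Klk5 did not pass as deposited (adjusted p = 0.0622 and 0.134), without litter A (0.0969 and 0.226) or without litter B (0.179 and 0.393), and Klk5 did not without the block (0.0774). By litter the median of these genes was -0.01 (A), -0.11 (B) and -0.84 (C), and it was -0.10 without litter C.

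The litter C control did not stand in 1 place on these genes. Krt1 had 916.8, 1298.6 and 350.8 in controls and 441.6, 334.9 and 211.4 in knockouts, with litter C lowest of the controls, as on the brighter Pla2g2f probe set. Krt10 had 590.4, 737.4 and 760.4 in controls and 214.9, 252.1 and 283.6 in knockouts, and Klk5 142.5, 163 and 269.2 against 61.7, 73.5 and 81.8, with litter C highest of the controls, as for Pla2g4e. Of 12 measured basal-layer genes 0 passed by limma, with a median of -0.20. At an unadjusted p under 0.05, 6 were lower and 1 higher, where 18.1% of all genes had such a p. The transcription factor Trp63 had -0.43 ± 0.08, the integrin Itga3 0.78 ± 0.19, the basal plakin Dst -0.25 ± 0.07 and the keratin Krt15 -2.49 ± 0.65, with 267.5, 238.6 and 5.6 in controls and 11, 1.8 and 2.2 in knockouts. In bulk arrays fewer cells of a layer and less RNA per cell cannot be told apart. The part of these layer genes in the Pla2g2f values was not tested.

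Of 9 measured keratinocyte markers 0 passed by limma, where 0.616% of all genes did. At an unadjusted p under 0.05, 3 were lower and 0 higher, where 18.1% of all genes had such a p. The groups did not overlap in 2 lower and 1 higher (10.8% and 9.81% of all genes), and the median was -0.03. The summed intensity of these markers was 28280 to 30710 in controls and 28130 to 29220 in knockouts. The brightest markers contribute most to such a sum. Markers of other skin cells are given beside these values. Of 8 melanocyte markers 2 rose (Tyrp1 and Mlana, limma adjusted p = 0.038 and 0.0429), where 0.214% of all genes did. Of these markers 7 were higher and 0 lower at an unadjusted p under 0.05, where 18.1% of all genes had such a p. The groups did not overlap in 7 higher and 0 lower (9.81% and 10.8% of all genes), and the median was 0.46. The summed intensity of the list was 4650 to 4810 in controls and 6445 to 7084 in knockouts. Of 9 fibroblast markers 0 passed by limma, where 0.616% of all genes did. Among them 4 were higher and 0 lower at an unadjusted p under 0.05, where 18.1% of all genes had such a p. Groups that did not overlap were seen in 2 higher and 0 lower (9.81% and 10.8% of all genes). The fibroblast list had a summed intensity of 416.1 to 1228 in controls and 1368 to 1689 in knockouts. Of the fibroblast list only Lum, Dcn and Vim are named here, chosen with values known, and they do not stand for the list. Lum and Dcn stayed at or under 33 on all arrays, whereas Vim reached 1037.8. Summed T-cell markers lay between 57.6 and 111.5 on the 6 arrays, nearly all of it Thy1, and none of Cd3d, Cd3e, Cd3g and Cd2 was above 8.2. Macrophage and Langerhans cell markers summed to 132.9 to 200.7, mast cell markers to 56 to 104.1 and endothelial markers to 46.8 to 83.4, and no gene of these 3 lists or of the T-cell list passed. None of the marker genes was at 0 on any array. As only 1 to 7 of all probe sets per array were at 0 as deposited, this does not show that these cells were present. The part of other cell types in the phospholipase A2 values was not tested.

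By likeness over the 6 arrays, among genes with a mean intensity of at least 64, the profile of the brighter Pla2g2f probe set was closest to Limd1, Clca3a2, Wbp1, Lrrc45 and Ccny (Pearson r from 0.997 to 0.999 over 7566 candidate genes). Clca3a2 had 357.5, 387.6 and 124.2 in controls and 73, 71.4 and 63.4 in knockouts. Pla2g4a was closest to Serpinb2, Trio, Epha4, Epha2 and Tpst2 (r from 0.989 to 0.997). Serpinb2, an inhibitor of plasminogen activators, had 2985, 2917.9 and 2915.3 in controls and 5185.9, 4249.9 and 3883.3 in knockouts. With 6 arrays and so many candidates, coefficients of this size describe the shape of 6 points and carry no p, and the 6 points share 2 genotypes and 3 litters.

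**Figure D4:**
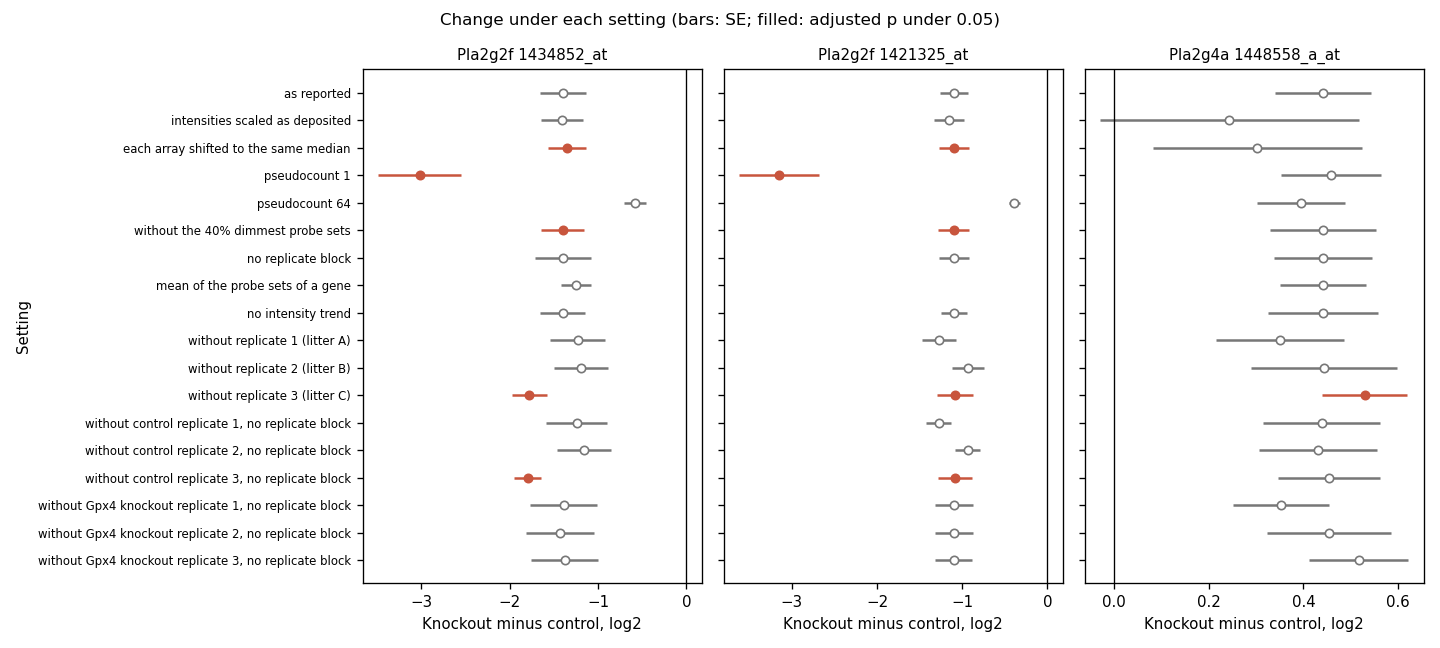
Log2 change of the 2 Pla2g2f probe sets and of Pla2g4a under the reported setting and each alternative, with bars for the SE and filled red symbols where the adjusted p is under 0.05. Every value keeps its sign, Pla2g2f moves most with the number added before the logarithm (-3.02 to -0.58 on the brighter probe set), and the Pla2g4a value is smallest, 0.24, with the intensities scaled as deposited.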

How the data were processed

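Total RNA of 6 keratinocyte pools was measured on 1-colour Affymetrix arrays. The authors deposited 1 linear intensity per probe set and array; RNA was extracted with Trizol and labelled with biotin, per the labels' protocols. Background correction, summarisation and scaling are not given in the sources used here, and no detection calls were used, so dim values have no measured limit. After the 64 control probe sets were left out, 45037 probe sets were quantile-normalized, because the arrays differed in overall level. A linear model on log2(intensity + 16) with a litter block was fitted in limma 3.58.1 (R 4.3.3; lmFit, eBayes with intensity trend), two-sided, with Benjamini-Hochberg adjustment over all probe sets. The model fit alone was checked on simulated arrays with known changes, drawn from the means and fitted spread of these data. That check did not cover the normalization, the number added or the assignment of probe sets to genes.

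Litter pairs the arrays by the labels, and residuals of same-litter arrays correlated with r = 0.175, 0.0474 and 0.207. Whether the litters' pools were grown or labelled separately is not stated beyond their description as biological replicates. Symbols came from the platform annotation of 2016, updated through gene identifiers: 34945 probe sets had 1 gene, 932 several and 9160 none listed. A gene was counted on the probe set with the highest mean over all arrays. Named were all members, Gpx4, up to 4 genes of each pathway list by smallest p, the 5 genes most like Pla2g2f and Pla2g4a, and cluster neighbours. Other genes given beside these, such as sex-linked genes and cell type markers, were chosen with values known. The members and lists were chosen with earlier results of these data known. Alternatives changed the scaling, the added number, a filter on the 40% dimmest probe sets, the block, the trend, the use of several probe sets, and left out each litter or array.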

Additional observations from a re-analysis of the deposited data

How the results depend on the processing

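Over all probe sets 189 passed (71 higher, 118 lower in the knockout). The count was 35 as deposited (3 higher, 32 lower), 710 with array medians made equal, 601 and 59 with 1 and 64 added, 1130 without the 40% dimmest probe sets and 6 without the intensity trend. With a litter left out limma gave 0 to 2773, 0 without litter B (3700 at an unadjusted p under 0.05). As deposited the median log2 change of probe sets brighter than the median was -0.16. Of the members 0 passed. The count was 1, Pla2g2f, with equal medians, with 1 added or without the dimmest probe sets, and 0 to 2 with a litter left out, 2 being Pla2g2f and Pla2g4a without litter C. Without the replicate block no member's call changed (Pla2g2f -1.40, Pla2g4a 0.44, adjusted p = 0.135). The brighter Pla2g2f probe set passed at -1.35 with equal medians, -3.02 with 1 added, -1.40 without the dimmest probe sets, -1.78 without litter C and -1.80 without control C, and lay between -1.80 and -1.16 with a litter or array left out. The dimmer passed under the same 5 settings at -1.10, -3.15, -1.10, -1.09 and -1.08, with a litter or array left out within -1.27 to -0.94. With a litter or array left out Pla2g4a lay between 0.35 and 0.53, its value without litter C. As deposited Pla2g4a was 0.24, and with equal medians 0.30. The other 9 member probe sets passed in 0 of 147 values, and 20 of these turned direction. Pla2g4e was 0.17 without litter C and 0.28 without control C. The brightest Pla2g6 probe set was -0.076 as deposited, -0.016 with equal medians, -0.0034 without litter A and -0.011 without control A. The next was 0.0059 without litter A, 0.20 without litter B, 0.126 without control A and 0.126 without knockout B. Pla2g10 was -0.011 as deposited, -0.026 without litter C and -0.061 without knockout A. Pla2g12a was -0.16 as deposited, -0.098 with equal medians, -0.20 without litter A, -0.061 without litter B, -0.126 without control A, -0.062 without knockout A and -0.069 without knockout B. Conversion genes passing were 2, against 0 as deposited, with probe sets averaged or without the trend, 1 with equal medians or 64 added, and 0 to 3 with a litter left out. Suprabasal genes passing were 2, against 0 as deposited or without the trend, 6 with equal medians, 4 and 1 with 1 and 64 added, 7 without the dimmest probe sets, 1 without the replicate block or with probe sets averaged, and 0 to 11 with a litter left out. Basal genes passing were 0, against 1 with equal medians or without the dimmest probe sets and 0 to 6 with a litter left out. Regulators passing were 0, against 1 with equal medians, with 1 added or without the dimmest probe sets and 0 to 2 with a litter left out. Reacylation genes passing were 0, and 0 to 2 with a litter left out. The cause of these shifts was not tested. Whether intensities near 0 can be put in order was not tested, and this limit also holds for the groups of Pla2g2f and Pla2g3 that did not overlap. Dim members could hold differences that these 6 arrays do not show.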

Other observations

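The litter C control had the highest of the 6 arrays in 14 of the 24 suprabasal and cornified-layer genes (58.3%), against 15.9% of all genes, 2 of the 9 phospholipase A2 members and 0 of the 12 basal-layer genes. This count was made after the values were seen, and the difference between lists was not tested. The calcium-binding Calm4 had 3784.5 there against 504 to 1228 on the other 5 arrays and the protease Klk7 3883.3 against 909.6 to 1518.2. The 2 members were Pla2g4e, with 88.8 against 23.6 to 44.4, and Pla2g12a, with 57 against 34.1 to 52.8. In 6 of the 24 suprabasal genes the litter C control was instead the lowest control (40.7% of all genes), among them Krt1 (350.8) and Dsg1a (508.9), and so it was on the brighter Pla2g2f probe set (13). Spink5 and Tgm1 had their highest values in knockouts. No account of this pool is given by the labels.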
